A study of Canis lupus familiaris with 18 samples.

Results

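The centromere-proximal ends of the dog autosomes were described with *E2F1* and *H3K27ac* *ChIP-seq* peaks from brainstem tissue (pons). A peak belonged to a proximal end if its midpoint lay within the first 2 Mb of chr1 to chr38 in the CanFam3.1 build, whatever its strength. This rule gave 53224 peaks of 1381743 in the 12 deposited lists, of which 31200 were *E2F1* and 22024 were *H3K27ac* peaks. The proximal ends together cover 76 Mb of the 2203.67 Mb of autosome, which is 3.45%.

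The tissue came from 6 male dogs of 12 to 16 years, with 1 *E2F1* and 1 *H3K27ac* list per dog. In the ancestral group, 3 dogs were heterozygous for a transposable element (TE) insertion in *GTF2I* (label ins), and in the derived group 3 dogs lacked the insertion (label noins). The groups differ in this allele by their labels, and no dog was homozygous for the insertion. *GTF2I* itself lies on chr6 beyond the first 2 Mb. Each list came from bulk tissue, so fewer cells with a bound site and weaker binding per cell cannot be told apart. The cell types of the tissue were not checked against markers, because no annotation of this build was used here. Depth is unknown from the lists, and where no peak was called the lists hold no value.

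The autosomes of the dog are acrocentric, so the centromere lies close to 1 end, and the reference sequence of most chromosomes begins beside it. Sequence next to centromeres is rich in satellite repeats and duplicated segments, and copies of such sequence are often collapsed in an assembly. *E2F1* is a transcription factor of the cell cycle that binds mainly at promoters, and *H3K27ac*, acetylation of a histone tail, marks active promoters and enhancers. The orientation of chr27 and chr32 in this build is in doubt, and results were therefore also computed without them.

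*E2F1* peaks were denser in the proximal ends than in the rest of the autosomes in every dog. The proximal ends held 52.7, 48.8 and 79.2 *E2F1* peaks per Mb in ancestral dogs 1 to 3, compared with 65.7, 96.7 and 67.4 in derived dogs 1 to 3. The rest held 38.8, 37.7 and 58.5 peaks per Mb in the ancestral group and 48.1, 71.8 and 52.1 in the derived group. Dogs differed more from each other than the ends differed from the rest, but all 6 moved the same way. The mean density was 68.4 ± 17.6 per Mb (SD, n = 6) against 51.2 ± 12.8, a ratio within dogs of 1.33-fold with a range of 1.29 to 1.37. On the log2 scale the ratio was 0.42 ± 0.036 (exact two-sided sign-flip test, p = 0.03125, the smallest that 6 dogs allow). Adjusted over 14 such tests within dogs, this exact p was 0.0337 with the Benjamini-Hochberg method. The ratio was larger among stronger peaks, at 1.55-fold with the q threshold of the study's methods and 3.12-fold with a stricter one (log2 1.64 ± 1.12, each exact p = 0.03125). It was smaller without the first 100 kb of each chromosome (1.27-fold) and as a mean over single chromosomes (1.23-fold). With a boundary at 4 Mb it was 1.19-fold (each exact p = 0.03125).

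*H3K27ac* peaks were slightly less dense in the proximal ends. The ends held 60.8, 41.4 and 44.4 *H3K27ac* peaks per Mb in the ancestral group and 50.6, 43.4 and 49.1 in the derived group. The rest held 62.8, 44.9 and 45.6 per Mb in the ancestral group and 53.7, 43.8 and 51.6 in the derived group. The groups of values overlapped almost wholly, and only the comparison within dogs separated them. The ratio was 0.958-fold, from 0.923 to 0.991, and lower in 6 of 6 dogs (exact sign-flip test, p = 0.03125, adjusted p = 0.0337). The call was lost when the first 100 kb of each chromosome were left out (0.974-fold, exact p = 0.09375), and the direction turned with a stricter q threshold (1.02-fold, exact p = 0.125). As a mean over single chromosomes the ratio was 0.820-fold (exact p = 0.03125).

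**Figure D1:**
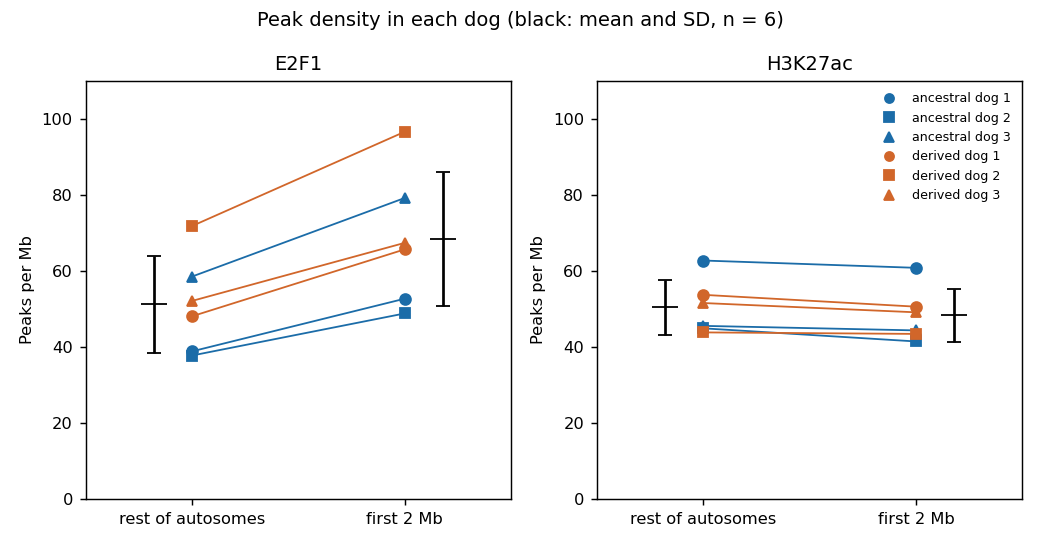
Peaks per Mb in the rest of the autosomes and in the first 2 Mb, with 1 line per dog, coloured by genotype, and the mean with its SD in black. All 6 *E2F1* lines rise, from a mean of 51.2 to 68.4, and all 6 *H3K27ac* lines fall by a small amount, from 50.4 to 48.3.

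The proximal ends held 4.56% of the autosomal *E2F1* peaks and 3.31% of the *H3K27ac* peaks. *E2F1* peaks covered 2.22% of the proximal sequence and 1.55% of the rest, a ratio of 1.43-fold (6 of 6 dogs, exact p = 0.03125) that rose to 3.66-fold at the stricter q (exact p = 0.03125). *H3K27ac* peaks covered 10.3% and 11.6%, a ratio of 0.892-fold (0 of 6 dogs higher, exact p = 0.03125). The boundary at 2 Mb was not a sharp one for either antibody. The *E2F1* density was 63.8 ± 18.7 per Mb from 1.5 to 2 Mb and 54.3 ± 15.5 from 2 to 2.5 Mb, and that of *H3K27ac* was 49.6 ± 6.50 and 47.4 ± 6.50 (SD, n = 6).

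Both ends of a chromosome were also set against each other. *E2F1* peaks were less dense in the proximal than in the distal 2 Mb (0.912-fold, 6 of 6 dogs lower, exact p = 0.03125, adjusted p = 0.0337). This order depended on weak peaks, since it was 1.02-fold at the q threshold of the study's methods (exact p = 0.875) and 1.85-fold at a stricter q (exact p = 0.03125). *H3K27ac* peaks were denser in the proximal than in the distal end (1.06-fold, 6 of 6 dogs higher, exact p = 0.03125), and at 1 Mb instead of 2 Mb the ratio was 1.01-fold (exact p = 0.3125).

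Proximal *E2F1* peaks were a little wider than the others. Their median width was 260.5 ± 26.7 bp against 254.4 ± 25.2 bp, a difference of 6.08 bp that had the same sign in 6 of 6 dogs (exact p = 0.03125). It was 11.8 bp with a boundary at 1 Mb and 13.4 bp at the q threshold of the methods (each exact p = 0.03125). Wide peaks showed a larger difference. Peaks of 1 kb or more made up 2.60%, 2.83% and 1.56% of proximal *E2F1* peaks in the ancestral group and 1.38%, 2.94% and 0.722% in the derived group. The rest had 0.817%, 1.9% and 1.29% in the ancestral group and 0.111%, 2.29% and 0.250% in the derived group. Wide peaks were thus more frequent in the ends in 6 of 6 dogs, with the smallest gain in ancestral dog 3 and the largest in ancestral dog 1 (exact sign-flip test, p = 0.03125). This test was not among the 14 planned tests within dogs, and its p was not adjusted. *H3K27ac* peaks were narrower in the ends, with a median of 1214 ± 81.2 bp against 1255 ± 77.2 bp (0 of 6 dogs higher, exact p = 0.03125). The difference of -40.9 bp became -296 bp at the stricter q (exact p = 0.03125). Domains of 5 kb or more made up 9.33% against 10.2% of them.

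Proximal *E2F1* peaks were more often found again in other dogs. A peak was counted as shared if it overlapped peaks of at least 3 of the 5 other dogs by 1 bp or more. In the ends 16.5%, 20.2% and 13.0% of *E2F1* peaks were shared in the ancestral group and 11.3%, 11.4% and 13.2% in the derived group. In the rest the shares were 10.0%, 12.9% and 8.83% in the ancestral group and 5.59%, 7.67% and 7.98% in the derived group. Every dog had the higher share in the ends, by 5.41 ± 1.35 points (SD, n = 6; exact p = 0.03125, adjusted p = 0.0337), and the ends were also more densely covered by peaks, as given above. Without the first 100 kb the difference was 1.17 points (exact p = 0.03125). It was 2.51 points with a boundary at 4 Mb, 10.4 at 1 Mb, 10.5 at the q threshold of the methods and 12.6 at the stricter q (each exact p = 0.03125). *H3K27ac* sharing was high everywhere, at 75.3 ± 8.40% against 74.0 ± 7.96%, and its difference of 1.27 points missed the threshold (5 of 6 dogs higher, exact p = 0.09375). The call passed with an equal number of peaks per dog (1.71 points, exact p = 0.03125).

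The same contrast appeared in base pairs. The Jaccard index, the shared length of 2 lists divided by their joint length, had a median of 0.103 between the *E2F1* lists of 2 dogs in the ends and 0.0642 in the rest, and was higher in the ends for 15 of 15 pairs of dogs. For *H3K27ac* it was 0.568 and 0.574, and higher in the ends for 2 of 15 pairs. These pairs share dogs and are given as a description.

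*E2F1* peaks in the ends also ranked higher in their own lists. Their median percentile by −log10 q was 54.8 ± 2.5 against 48.7 ± 1.9 in the rest, higher by 6.04 points in 6 of 6 dogs (exact p = 0.03125). With the first 100 kb left out the difference was 3.06 points (exact p = 0.0625). Proximal *H3K27ac* peaks stood at a median percentile of 52.2 ± 0.952 against 49.9 ± 0.030 (6 of 6 dogs higher, exact p = 0.03125). The share of proximal peaks that pass the q thresholds of the study's methods was 25 to 53.2% of *E2F1* and 93.7 to 97.7% of *H3K27ac* peaks. In the rest it was 17.3 to 48.8% of *E2F1* and 93.2 to 97.7% of *H3K27ac* peaks.

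Fewer of the proximal *E2F1* peaks lay in acetylated chromatin. In the ends 33.1%, 30.2% and 29.4% of the *E2F1* peaks of ancestral dogs 1 to 3 coincided with *H3K27ac* peaks of that dog by 1 bp or more, as did 20.6%, 35.9% and 25.8% in derived dogs 1 to 3. In the rest the shares were 40.4%, 40.2% and 37.6% in the ancestral group and 28.7%, 44.6% and 31.9% in the derived group. The share was lower in the ends in every dog, with a difference of -8.05 ± 1.3 points (SD, n = 6; exact p = 0.03125, adjusted p = 0.0337), and of -19.3 ± 7.49 points at the stricter q (exact p = 0.03125). In the other direction, 27.7 ± 8.24% of proximal *H3K27ac* peaks and 25.1 ± 7.20% of the others overlapped an *E2F1* peak of the same dog, a difference of 2.65 points (6 of 6 dogs higher, exact p = 0.03125). With a boundary at 4 Mb it was 0.888 points (exact p = 0.09375), and 0.963 points where an overlap of 50% was asked for and 1.33 at the stricter q (each exact p = 0.03125). *E2F1* peaks also covered more of the ends than of the rest, as given above. Divided by the share of sequence that *E2F1* covered, the overlap of *H3K27ac* peaks was 12.5 ± 1.53 in the ends and 16.1 ± 1.38 in the rest, which is the opposite order.

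The genotypes overlapped in the density of the proximal ends. The log2 ratio of *E2F1* density was 0.416 ± 0.039 in the ancestral and 0.417 ± 0.041 in the derived dogs (SD, n = 3 each; exact permutation test, p = 1). For *H3K27ac* it was -0.066 ± 0.043 and -0.057 ± 0.038 (exact permutation test, p = 0.8). With 3 dogs against 3 the smallest possible p is 0.1, so no difference of any size could pass 0.05, and these values do not show whether the genotypes differ.

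The *E2F1* excess was highest at the very start of the chromosomes. In bins of 100 kb counted from the chromosome start, the first bin held 2.5 times the *E2F1* density of the rest, from 2.05 to 2.97 in the 6 dogs, and the second bin 1.26 times. The later bins stayed between 1.12 and 1.44 times. *H3K27ac* went the other way, with 0.65 times the density of the rest in the first bin and 0.77 times in the second, and it ran from 0.72 to 1.19 times beyond them.

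**Figure D2:**
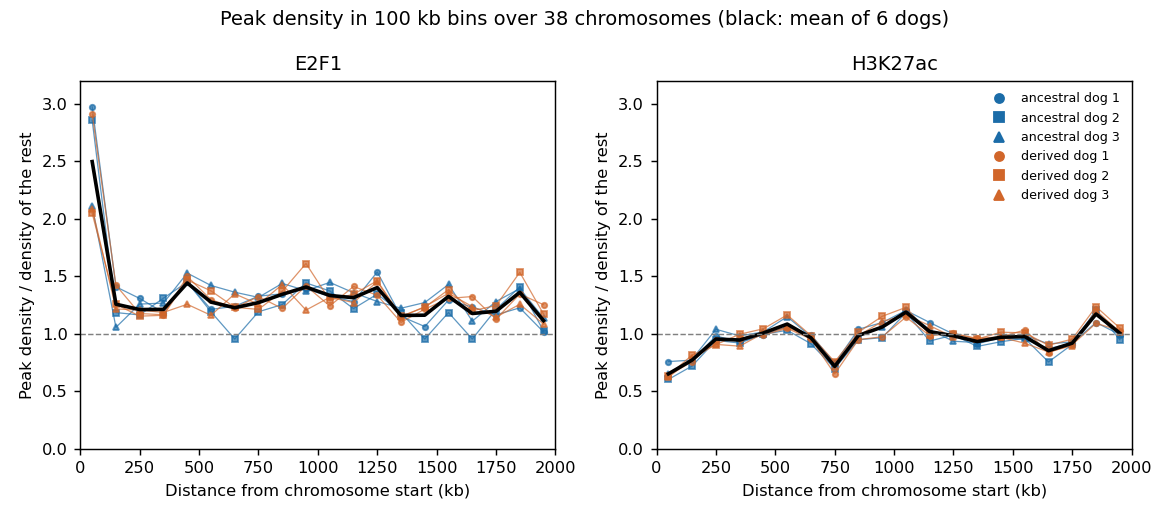
Peak density in 100 kb bins against the distance from the chromosome start in kb, as a ratio to the rest of the autosomes, with 1 thin line per dog and the mean in black. The first *E2F1* bin stands at 2.5 and the others between 1.12 and 1.44, while the first *H3K27ac* bin is the lowest at 0.65.

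The first 100 kb were then compared with the following 1.9 Mb, a split chosen after this profile of density had been seen, so that density is given as a description with no test. *E2F1* peaks were 1.93-fold denser in the first 100 kb, at 123.8 ± 16.4 per Mb against 65.5 ± 17.9 (6 of 6 dogs), and 3.69-fold at the q threshold of the methods and 15.2-fold at the stricter q. *H3K27ac* peaks were 0.667-fold as dense, at 33.1 ± 7.59 against 49.1 ± 7.04 per Mb (0 of 6 dogs higher), although at a stricter q the ratio was 0.983-fold. The other 8 comparisons of this split were tested, and an exact p of 0.03125 was 0.0417 when adjusted over them.

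*E2F1* peaks in the first 100 kb were wider, more recurrent, lower in fold and less often acetylated than those of the following 1.9 Mb. Their median width exceeded that of the following 1.9 Mb by 70.8 bp (6 of 6 dogs, exact p = 0.03125). Their fold enrichment over the local background, as macs2 gives it, had a median of 3.2 ± 0.053 against 4.08 ± 0.177 and was lower in 6 of 6 dogs (exact p = 0.03125). The share found in at least 3 other dogs was 56.0%, 61.7% and 55.9% in the ancestral group and 49.8%, 48.7% and 59.9% in the derived group. In the following 1.9 Mb no dog had more than 15.0%, so the shares did not overlap, and the difference was 45.3 ± 3.60 points (exact p = 0.03125). *E2F1* peaks covered 5.90% of the first 100 kb and 2.03% of the following 1.9 Mb. Overlap by 1 bp is easier where peaks are dense, so this test is not independent of the density that set the split. Overlap with *H3K27ac* was 18.8 ± 5.18% against 30.2 ± 5.55% (0 of 6 dogs higher, exact p = 0.03125). *H3K27ac* covered 8.48% of the first 100 kb and 10.4% of the following 1.9 Mb. In the other direction, 43.1 ± 6.12% against 27.2 ± 8.38% of *H3K27ac* peaks overlapped *E2F1* (6 of 6 dogs higher, exact p = 0.03125). Their median width differed by -163.5 bp (0 of 6 dogs higher, exact p = 0.03125). Their sharing (-2.20 points) and median fold (0.092) missed the threshold (each exact p = 0.34375).

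Low fold went together with very high significance there. *E2F1* peaks with a fold below 4 and a −log10 q over 100 numbered 29, 17 and 21 on all autosomes of ancestral dogs 1 to 3, compared with 22, 27 and 17 in derived dogs 1 to 3. Of these, 14, 8 and 9 lay in the first 100 kb of an autosome in the ancestral group and 14, 11 and 8 in the derived group. That is 40.7 to 63.6% of them, on 3 to 5 chromosomes per dog. Of all autosomal *E2F1* peaks, the first 100 kb held 410 of 84014 in ancestral dog 2, the shortest list. In derived dog 2, the longest list, they held 559 of 160157. At a given fold, the q value of macs2 becomes smaller as the number of reads rises.

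A few chromosomes carried many of the *E2F1* peaks in the first 100 kb. On chr6 the first 100 kb held 45, 45 and 50 *E2F1* peaks in the ancestral group and 58, 48 and 45 in the derived group. On chr1 they held 40, 39 and 35 in the ancestral group and 48, 46 and 35 in the derived group. Both chromosomes were far above chr2, where 4 of 6 dogs had no *E2F1* peak there at all. The 5 leading chromosomes, chr6, chr1, chr34, chr37 and chr3, held 36.5% of the *E2F1* peaks of the first 100 kb. The 5 leading chromosomes for *H3K27ac*, chr19, chr7, chr23, chr3 and chr9, held 41.3% of its peaks, and chr3 was in both lists. On 5 chromosomes (chr2, chr14, chr15, chr27 and chr36) no dog had an *H3K27ac* peak there.

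**Figure D3:**
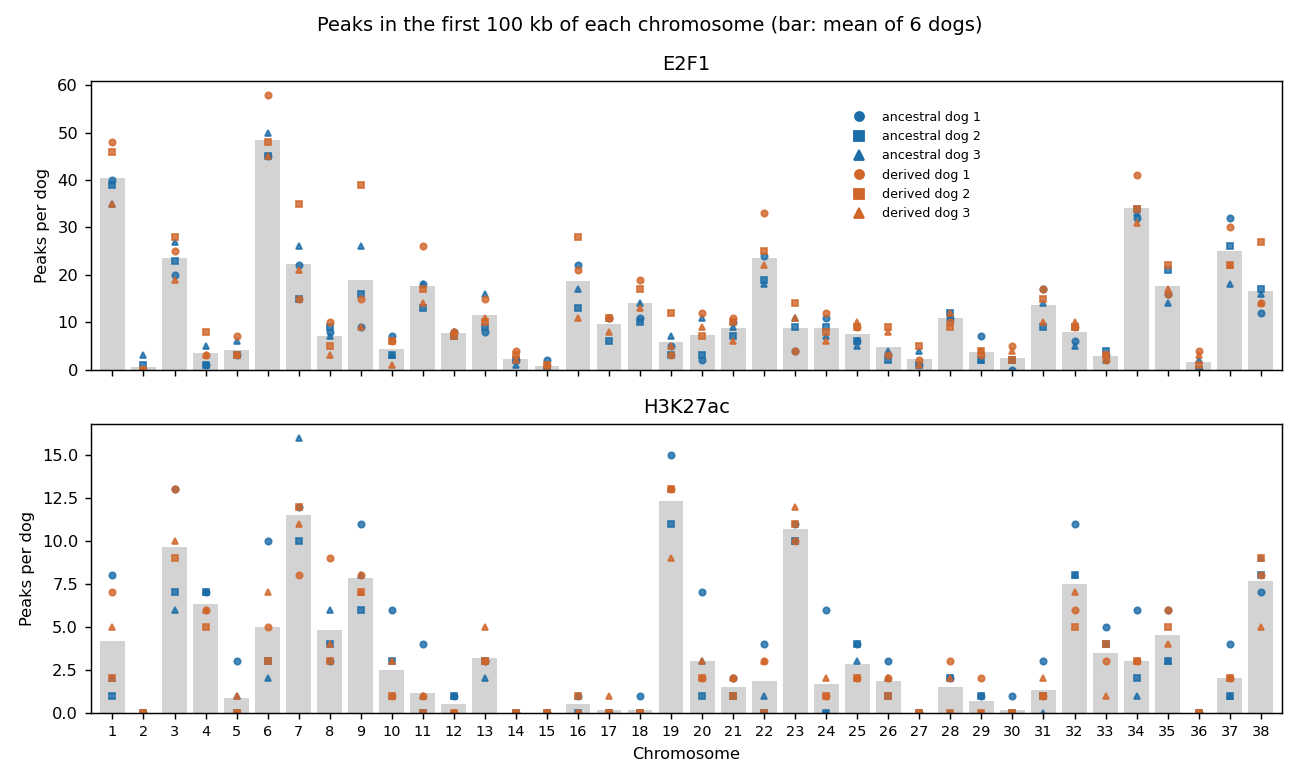
Number of peaks in the first 100 kb of each chromosome, with the mean of 6 dogs as a bar and each dog as a point, coloured by genotype. *E2F1* peaks are most numerous on chr6, with a mean of 48.5, and chr1, with 40.5, and the highest *H3K27ac* mean is 12.3 on chr19.

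Overlapping or touching peaks of the 6 dogs were merged into regions. A region called in several dogs therefore need not hold a site common to all of them. Merging gave 21924 proximal *E2F1* regions. Of these, 17005 (77.6%) came from 1 dog and 262 (1.20%) were called in all 6 dogs, against 80.2% and 0.512% of the 490298 regions in the rest. The first 100 kb held 141 regions called in all 6 dogs out of 1104 (12.8%), and the following 1.9 Mb held 121 out of 20820 (0.581%). Regions of the rest were thus close in this share to those of the following 1.9 Mb, which is a description with no test.

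The recurrent *E2F1* regions of the first 100 kb differed from the others in their acetylation. Of the 141, 85 (60.3%) had no *H3K27ac* peak in any dog and 5 (3.55%) had one in all 6. Of the 121 in the following 1.9 Mb, 26 (21.5%) had none and 78 (64.5%) had one in all 6. In the rest of the autosomes 10.7% of the 2509 recurrent regions had none and 76.2% had one in all 6 dogs. By chromosome, chr6 had 30 recurrent regions (25 of them in the first 100 kb), chr1 had 20 (19) and chr34 had 18 (18). On chr12 there were 29 (3) and on chr10 23 (0), where the recurrent regions lay further in. Only 2 of 29 on chr12 and 0 of 23 on chr10 lacked *H3K27ac*, against 16 of 30 on chr6. Some chromosomes with fewer such regions went the other way. On chr9 and chr14, with 0 recurrent regions in the first 100 kb, 5 of 9 and 3 of 7 lacked it. On chr28 all 4 lay in the first 100 kb and 0 lacked it.

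The 5 recurrent *E2F1* regions with the highest lowest percentile over the 6 lists were all on chr1 and chr6 within the first 100 kb. The region chr1:2740-7285, of 4546 bp, had a fold of 2.94, 2.82 and 2.44 in the ancestral group and 3.14, 2.39 and 2.53 in the derived group. Its −log10 q was 1938, 929 and 681 in the ancestral group and 3198, 1107 and 780 in the derived group. The others were chr1:27943-29388, chr6:1302-3225, chr6:310-1094 and chr1:878-2024, with folds between 2.43 and 3.85 and −log10 q from 258 to 1512. *H3K27ac* was called at chr6:1302-3225 in 6 dogs and at chr1:27943-29388 in 3.

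The widest *E2F1* regions included others with a higher fold and acetylation in all 6 dogs. The region chr10:476447-481228 spanned 4782 bp, and the fold of its strongest peak was 7.91, 14.2 and 12.1 in the ancestral group and 4.72, 8.68 and 6.27 in the derived group. The regions chr10:1279539-1284257, chr9:368729-373368 and chr12:482219-486729 were 4719, 4640 and 4511 bp wide and had folds between 3.1 and 9.86. All 4 were called in 6 dogs and overlapped *H3K27ac* in 6 dogs. The fifth, chr1:2740-7285, overlapped *H3K27ac* in 4. These widths are those of merged regions. In chr10:1279539-1284257 the strongest peak of each dog was 174 to 2252 bp wide, and these peaks did not all overlap.

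*H3K27ac* regions were far more recurrent than those of *E2F1*, with no such surplus in the ends. Of 5786 proximal *H3K27ac* regions, 1632 (28.2%) were called in all 6 dogs, against 27.3% in the rest. By its lowest percentile over the 6 lists, chr9:767264-773533 stood first, although chr12:429079-469767 ranked above it in some lists. Its fold was 21.4, 23.8 and 21.3 in the ancestral group and 18.9, 26.2 and 25.4 in the derived group. The chr9 region was followed by chr12:429079-469767, chr38:1734439-1780245, chr35:77598-83855 and chr22:1509363-1515604, with folds of 12.4 to 24.3. All 5 were called in 6 dogs, and *E2F1* was called within the first 3 of them in 6 dogs.

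The widest merged *H3K27ac* region of the ends began near the start of chr19. The region chr19:50075-124188 spanned 74114 bp and held 2 to 6 peaks per dog. The fold of its strongest peak was 14.4, 13.4 and 14 in the ancestral group and 14.7, 16.8 and 12.9 in the derived group. These strongest peaks did not all overlap, and the widest single proximal *H3K27ac* peak of any dog was 57581 bp. The next 3 regions were all on chr38 (chr38:855113-921545, chr38:1664190-1722558 and chr38:1446506-1504239, of 57734 to 66433 bp), and the fifth was chr12:496840-548585 (51746 bp). Each of the 5 was called in all 6 dogs and overlapped an *E2F1* peak in all 6. In chr38:1664190-1722558 the strongest peak of each dog was only 1257 to 8151 bp wide.

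The single strongest *E2F1* signal stood apart in the lists. At chr38:586472-587050 the fold was 205 and 1269 in ancestral dogs 1 and 2 and 963, 2219 and 4623 in derived dogs 1 to 3, and ancestral dog 3 had no peak. *H3K27ac* peaks of 413 to 1008 bp lay at the same place in 5 dogs, with folds of 106 and 37.6 in ancestral dogs 2 and 3 and 28.2, 20.4 and 11.4 in derived dogs 1 to 3, and ancestral dog 1 had none. It was the only proximal locus above 100-fold with either antibody. The dog without a peak was not the same one.

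The ends of single chromosomes differed far more than the mean over chromosomes. *E2F1* was denser in the proximal end than in the rest of its chromosome in all 6 dogs on 19 of 38 chromosomes, where 31.1% of all full 2 Mb windows of the autosomes met the same rule. It was less dense in all 6 dogs on 8 chromosomes, with a background of 50.5%. For *H3K27ac* the numbers were 13 chromosomes denser (background 40.2%) and 19 less dense (background 44.5%). The *E2F1* count of denser ends was therefore above its background and the *H3K27ac* count was not, as a description with no test.

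*E2F1* density was highest relative to the rest of the chromosome on chr12, chr22, chr38, chr7 and chr10. The end of chr12 held 184, 213 and 302 *E2F1* peaks in the ancestral group and 187, 420 and 238 in the derived group, a density ratio of 3.42-fold (log2 1.78 ± 0.25, SD, n = 6). The other 4 ratios were 2.83, 2.72, 2.46 and 2.34-fold in that order, and the lowest dog stood at 0.89 on the log2 scale. The lowest were chr2, chr21, chr36, chr31 and chr4. On chr2 there were 31, 29 and 61 *E2F1* peaks in the ancestral group and 63, 42 and 44 in the derived group, which is 0.34-fold (log2 -1.56 ± 0.43). The other 4 had ratios of 0.41, 0.48, 0.52 and 0.61-fold, and every dog was below 0 on the log2 scale.

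*H3K27ac* was densest relative to the rest on chr38, chr22, chr32, chr10 and chr12, 4 of which also led the *E2F1* order. The end of chr38 held 223, 167 and 196 *H3K27ac* peaks in the ancestral group and 220, 173 and 188 in the derived group, which is 2.45-fold (log2 1.29 ± 0.13). *H3K27ac* covered 42.1% of this end, the largest share of the 38, and 8.56% of the rest of chr38. The ends of chr22, chr32, chr10 and chr12 stood at 2.30, 2.30, 2.25 and 2.16-fold. The lowest were chr36, chr21, chr17, chr31 and chr33. The end of chr36 held 10, 19 and 6 *H3K27ac* peaks in the ancestral group and 10, 3 and 11 in the derived group, which is 0.12-fold (log2 -3.11 ± 0.78), and 0.362% of it was covered. The other 4 stood at 0.22, 0.25, 0.27 and 0.33-fold.

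**Figure D4:**
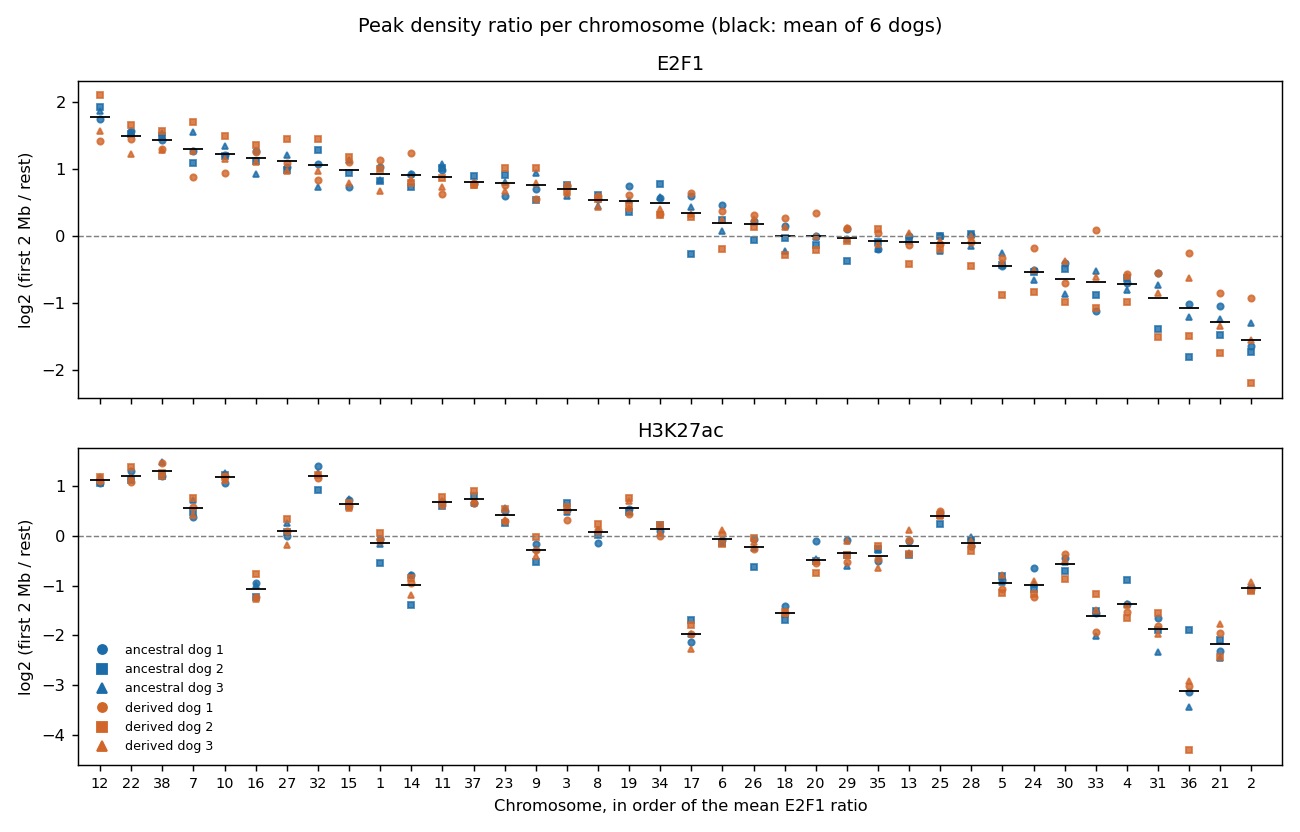
Log2 ratio of the peak density in the first 2 Mb to that in the rest of the same chromosome, for each dog (points) and as the mean (black), with chromosomes in order of the *E2F1* mean. *E2F1* runs from 1.78 on chr12 to -1.56 on chr2, and *H3K27ac* from 1.29 on chr38 to -3.11 on chr36.

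The orders of the chromosomes were alike but not the same. Across the 38 chromosomes the mean log2 ratios of both antibodies had a Pearson correlation of 0.763 and a Spearman correlation of 0.752, a description over points that share the dogs. Both were denser in all 6 dogs on 12 chromosomes and less dense on 8. On chr9, chr14 and chr16 *E2F1* was denser while *H3K27ac* was less dense, and the reverse was seen on 0 chromosomes. No background over all 2 Mb windows was computed for these joint counts, so they are a description only. The end of chr16 had 160, 133 and 187 *E2F1* peaks in the ancestral group and 221, 295 and 201 in the derived group (2.26-fold), beside 56, 35 and 39 and then 41, 43 and 36 *H3K27ac* peaks (0.48-fold). On chr14 the ratios were 1.88-fold and 0.50-fold, and on chr9 1.69-fold and 0.82-fold.

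The overlap between the antibodies also differed between chromosomes, and it did not always follow their density. The share of *E2F1* peaks that overlapped *H3K27ac* of the same dog was lower in the end than in the rest on 30 of 38 chromosomes. It ran from 1.1% on chr36 to 63.5% on chr38, with a median of 22.9%, whereas the rest of the chromosomes ran from 22.4 to 48.9%. On chr16 it was 7.73% in the end and 29.4% in the rest, on chr17 4.29% and 38.3%, and on chr9 19.7% and 48.9%. The ends of chr38, chr10 (59.6%) and chr12 (58.6%) had the highest shares. The end of chr22, dense in both antibodies, had 24.7% against 27.7% in the rest.

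**Figure D5:**
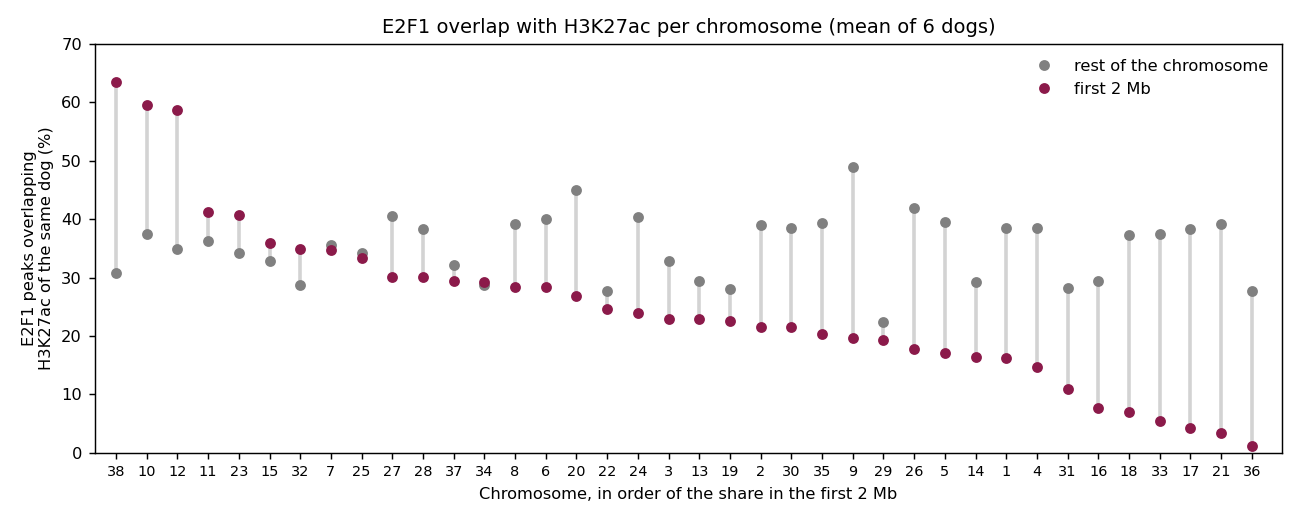
Share of *E2F1* peaks that overlapped *H3K27ac* of the same dog, in percent and as the mean of 6 dogs, in the first 2 Mb and in the rest of each chromosome. The share in the first 2 Mb runs from 63.5% on chr38 to 1.1% on chr36 and lies below that of the rest on 30 of 38 chromosomes.

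No gene could be assigned to a peak in this build. As background, the RefSeq gene table of another dog assembly, UU_Cfam_GSD, opens chr38 with *BTG2*, an antiproliferative gene, the proteoglycan genes *FMOD* and *PRELP*, and *ATP2B4*, a calcium pump of the plasma membrane. It lists *RPP21*, *GNL1* and *ABCF1*, neighbours of the class I genes of the major histocompatibility complex, among the first of chr12. The muscle integrin gene *ITGA7*, *CD63* and the growth factor gene *GDF11* are among the first of chr10. On chr36 it opens with *RPRM*, *GALNT13*, *KCNJ3*, which encodes a potassium channel, and the nuclear receptor gene *NR4A2*, and on chr21 with *PGR*, the progesterone receptor gene. These genes are a selection from the first 10 named genes of each chromosome. Their positions were not used, so they need not lie within the first 2 Mb. The order of these genes in CanFam3.1 was not checked.

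First peaks lay close to the start on many chromosomes. The median start of the first *E2F1* peak over dogs was within 100 kb on 37 of 38 chromosomes, and that of *H3K27ac* on 27. The first *H3K27ac* region shared by all 6 dogs began within the first 100 kb on 20 of 38 chromosomes. It began at position 1316822 on chr2, 892529 on chr17, 763481 on chr30 and 644022 on chr36, the farthest 4. For *E2F1* the first such region also lay within 100 kb on 20 chromosomes, and on chr36 there was none before position 15904994.

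Differences between genotypes at single ends were few. The log2 ratios of the derived dogs all lay below those of the ancestral dogs on 2 of 38 chromosomes for *E2F1* (background 4.44%), which were chr11 and chr34, and above on 0 (background 2.03%). On chr34 the ratios were 0.57, 0.79 and 0.59 in the ancestral and 0.33, 0.31 and 0.40 in the derived dogs. For *H3K27ac* they lay below on 1 chromosome, chr4 (background 4.07%), and above on 0 (background 3.23%). These numbers are near their backgrounds.

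Regions called in every dog of 1 genotype but absent from the lists of the other were rare too. Among the 21924 proximal *E2F1* regions, 30 were called in the ancestral dogs only (0.137%, background 0.11%) and 37 in the derived dogs only (0.169%, background 0.175%). Among the 5786 *H3K27ac* regions there were 11 ancestral (0.190%, background 0.273%) and 18 derived (0.311%, background 0.328%). The shares lay near those of all autosomal regions, and at the stricter q only 2 *E2F1* and 9 *H3K27ac* regions were left.

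The highest ranked of these regions had modest folds. For *E2F1* it was chr30:881414-881860 in the ancestral dogs, with folds of 7.91, 5.72 and 7.38 and *H3K27ac* in all 6 dogs. The derived dogs had chr20:9267-9497, with folds of 2.63, 1.76 and 2.23 and no *H3K27ac*. The other 4 per direction, on chr27, chr9, chr35 and chr38 for the ancestral and chr3, chr15, chr9 and chr26 for the derived dogs, had folds between 2.60 and 6.63. For *H3K27ac* the first were chr9:317271-317604 in the ancestral dogs (3.44, 5.57 and 5.53) and chr37:86859-87795 in the derived dogs (1.49, 1.47 and 1.5). The other 8 had folds between 1.59 and 4.56.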

How the data were processed

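The members and lists described here were chosen with earlier results of these data known. Of 18 samples, the 12 *ChIP-seq* peak lists of 6 dogs were used, and the 6 input samples were not analysed here. Groups and replicate numbers come from the sample labels.

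The authors trimmed reads with Trim Galore 0.0.6, aligned them to CanFam3.1 with bowtie keeping multi-mapped reads, removed duplicates by molecular identifier and called peaks in each dog with MACS2 2.2.0 (versions from the submitters' processing notes). Reads from repeats can therefore enter peaks, and the part of this in the results was not tested. Whether input entered the calls is not given in the sources used here. For their differential binding analysis, the authors removed peak sites that were enriched in the input. No such filter was applied here, so the regions named above may include sites that the authors removed. The deposited score of macs2 was not used. The deposited fold enrichment is a ratio over the local background, and the deposited columns of −log10 p and −log10 q come from macs2, which gives a mean over the whole region for a broad peak. No normalization between dogs was applied, so fold and q rank peaks within a list, and values of several dogs stand side by side without being compared.

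All deposited peaks entered the main analysis, because the lists reach weaker peaks than the thresholds of the methods (0.0005 for *E2F1* and 0.05 for *H3K27ac*). A chromosome was taken to end at the last peak of any list, and assembly gaps were not subtracted. Densities were compared within dogs as log2 ratios, with a pseudocount of 0.5 peaks for single chromosomes, by exact two-sided sign-flip tests over 64 assignments with Benjamini-Hochberg adjustment. Genotypes were compared by exact permutation tests over 20 assignments. The p-values rest on 6 animals. Named chromosomes are the 5 highest and 5 lowest ratios per antibody, and named regions are those in all 6 dogs whose lowest percentile by q was highest (5 per antibody), the 5 widest, up to 5 one-genotype regions per direction and all loci above 100-fold. Chromosomes named for the first 100 kb, for opposite ratios or for overlap were chosen after their values were seen. Alternatives were the thresholds of the methods, stricter q (1e-10 and 1e-05), the same number of top peaks for each dog, boundaries at 1 and 4 Mb, an overlap of 50%, a rest without its last 2 Mb, each dog left out, dogs paired by number, and no chr27 or chr32. The split at 100 kb was added after the data were seen. The cuts at a fold of 4, at a −log10 q of 100 and at widths of 1 kb and 5 kb were not among the planned comparisons. The scripts were tested on simulated lists. Python 3.11.15, numpy 2.4.6, pandas 2.3.3 and scipy 1.17.1 were used. No sequence or gene of CanFam3.1 was used.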

Additional observations from a re-analysis of the deposited data

Results flagged for a closer look

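The X chromosome lies outside the 38 autosomes compared above. Its first 2 Mb held at least 98 *E2F1* peaks in every dog and at least 63 *H3K27ac* peaks, and both numbers were singled out because they come from data that no comparison used. The density there was 3.23 to 5.96 times that of the rest of X for *E2F1* and 1.58 to 2.38 times for *H3K27ac* over the 6 dogs. Whether this end lies beside a centromere, and its copy number in these male dogs, were not examined. Its ratios are therefore not comparable with those of the autosomal ends.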

How the results depend on the processing

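Values are log2 ratios, points or bp, as in the report. Of 125 alternatives that kept all dogs for a tested result, 104 kept direction and side of the threshold, and for the rest the cause was not tested. Of 14 such counts of one-genotype regions, 5 were within 1.5 times the main count. At 1 Mb the proximal against distal ratio missed the threshold for *E2F1* (-0.050) and *H3K27ac* (0.016). At 4 Mb *E2F1* width (3.17 bp), *H3K27ac* overlap with *E2F1* (0.888 points) and *H3K27ac* rank (0.617) missed it. At the q thresholds of the methods *E2F1* rank was 7.12 (exact p = 0.0625) and the *E2F1* ratio to the distal end turned to 0.027. At the stricter q that ratio was 0.886, *H3K27ac* density turned to 0.035, and *E2F1* width (48.3 bp), *E2F1* rank (8.73), *H3K27ac* rank (0.443), and the *H3K27ac* distal ratio (0.061) missed the threshold. The untested log2 ratio of the first 100 kb was 1.88 for *E2F1* at the thresholds of the methods, and 3.93 for *E2F1* and -0.025 for *H3K27ac* at the stricter q. With an equal number of peaks per dog *E2F1* rank was 4.16 and *H3K27ac* sharing passed (1.71 points). Without the first 100 kb, a setting chosen after seeing the data, *E2F1* rank (3.06) and *H3K27ac* density (-0.037) missed it.

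The genotype difference in the *E2F1* log2 ratio turned at 1 Mb (-0.038) and without chr27 and chr32 (-0.0022), and that of *H3K27ac* at 1 Mb (-0.0057) and at the stricter q (-0.028). One-genotype regions numbered 1289 for *E2F1* and 282 for *H3K27ac* with at least 2 dogs of 1 genotype, 43 and 14 at 1 Mb, and 104 and 70 at 4 Mb. At the thresholds of the methods *E2F1* had 16, and at the stricter q there were 2 and 9.

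With 1 dog left out, 5 dogs cannot give an exact p below 0.0625, so every call within dogs was lost by construction, with no change of direction. For *E2F1* the ranges were 0.41 to 0.43 (density), 0.50 to 0.53 (covered length), 0.89 to 1.01 (first 100 kb), 5.30 to 6.60 bp (width), 4.52 to 5.35 points (sharing), 5.49 to 6.31 (rank), -0.15 to -0.10 (distal end) and -8.45 to -7.67 points (overlap). For *H3K27ac* they were -0.071 to -0.051, -0.18 to -0.15, -0.63 to -0.57, -44.7 to -36.2 bp, 0.983 to 1.54 points, 1.98 to 2.46, 0.077 to 0.094 and 2.31 to 2.98 points in the same order. The genotype difference ran from -0.022 to 0.023 for *E2F1*, turning without ancestral dog 2 and derived dogs 1 or 2, and from -0.015 to 0.025 for *H3K27ac*, turning without ancestral dog 2 or derived dog 2. One-genotype regions rose to 212 to 390 and 87 to 119, where 1 dog fewer had to share a region or could exclude it. With a replicate block, which pairs the dogs by number, the genotype differences stayed at 0.000427 and 0.0098 (exact p = 1 each, with 0.25 the smallest that 3 pairs allow). The numbers did not pair the dogs (correlations from -0.608 to 0.397), and no call changed. Peak lists hold no reads where no peak was called, so depth sets what could be seen and no detection limit can be given.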
